A study of Saccharomyces cerevisiae with 8 samples.

Results

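The heat shock chaperones examined here were 10 protein-coding genes of Saccharomyces cerevisiae, chosen by name out of 6600 protein-coding gene rows: the HSP70 genes SSA1, SSA2, SSA3 and SSA4, the HSP90 genes HSC82 and HSP82, the disaggregases HSP104 and HSP78, the small heat shock protein HSP42 and the HSP110 gene SSE2. RNA abundance was measured by RNA-seq in 4 evolved strains, each with 2 replicate cultures, 8 libraries in all. All strains descend from FY4, carry a GFP and KanMX reporter cassette and an amplification around GAP1, the general amino acid permease gene on chromosome XI, and were each grown from a colony in glutamine-limited chemostats and treated with cycloheximide before harvest. DGY1743 (ODIRA_B) carries an inverted triplication from VPS1 to ESL2. DGY1741 (ComQuad) carries a smaller amplification from SET3 to TRK2, in which GAP1 itself is further amplified. DGY1735 (ODIRA_A) carries an inverted triplication from ALY1 to SIR1. DGY1726 (Trans) carries a tandem duplication from TOF2 to GAP1 within a translocation, and a second amplification on chromosome V from SAK1 to YER137C. DGY1743 and DGY1741 were isolated later in the selection than DGY1735 and DGY1726. Each group is 1 isolate, so that amplification, other mutations and time of isolation cannot be told apart. The ancestor was not analysed here, and every comparison is between evolved strains.

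By the bounds named above, none of these genes lies in an amplified segment. SSA4 is on chromosome V but outside the segment amplified in DGY1726. All 10 genes were well covered, with mean counts over the 8 libraries between 1005 for HSP42 and 35283 for HSC82, and all 10 passed the minimum mean of 100 counts, as did 5527 of the 6600 protein-coding genes. Totals of protein-coding counts were between 9125509 and 13205947 per library. Mitochondrially encoded genes took 13.2% and 19.2% of these counts in the DGY1743 libraries and at most 0.0957% in the other 6. The DGY1743 replicates also differed most from each other, with a chi-square of 55.8 per degree of freedom, against 16.1 to 26.2 in the other strains.

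HSP70 proteins bind exposed hydrophobic stretches of other proteins and release them in cycles driven by ATP. Nucleotide exchange factors, among them the HSP110 proteins Sse1 and Sse2, set the pace of the cycle, and J-domain proteins deliver the clients. HSP90 acts later, on partly folded clients such as kinases and receptors, while Hsp104 in the cytosol and Hsp78 in mitochondria pull proteins out of aggregates. In budding yeast most of these proteins exist in a form made in all conditions and a form whose gene is induced by heat. Hsf1, which binds the heat shock element, and Msn2 and Msn4, which bind the stress response element, are the main transcription factors of this induction.

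The sequences upstream of the members are shown because both elements can be read in them. Heat shock elements are alternating repeats of nGAAn. They were searched on both strands within 500 bases before the start codon, as 2 units (GAANNTTC or TTCNNGAA) and as 3 units (GAANNTTCNNGAA or TTCNNGAANNTTC), so that each 3-unit match contains overlapping 2-unit matches. The stress response element was searched as AGGGG or CCCCT. Heat shock elements of 3 units were found before 5 of the 10 genes (SSA1, SSA2, HSP104, HSP42 and HSP78) and in 1.40% of 6567 upstream windows of the genome. Elements of 2 units stood before 9 of the 10 genes, against 35.5% of windows. Stress response elements stood before 7 of the 10 genes, against 34.0% of windows, and at least 2 of them before 6 of the 10, against 8.10% of windows. SSA3 had no exact match to any of these patterns in its window. Elements that depart from the patterns were not searched for. Each stretch below is only a part of the window. Matches outside the printed part were left out for SSA1, SSA4, HSC82, HSP82, HSP78 and SSE2. In the stretches, written 5′ to 3′ on the coding strand of each gene with coordinates in R64-1-1, capitals mark the matches to either element.
SSA1, chrI:141582-141800, minus strand: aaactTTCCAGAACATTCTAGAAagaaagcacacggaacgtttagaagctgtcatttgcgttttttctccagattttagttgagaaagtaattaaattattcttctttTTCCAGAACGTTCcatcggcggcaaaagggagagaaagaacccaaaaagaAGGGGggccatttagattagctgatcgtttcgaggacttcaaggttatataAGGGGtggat
SSA2, chrXII:97654-97737, minus strand: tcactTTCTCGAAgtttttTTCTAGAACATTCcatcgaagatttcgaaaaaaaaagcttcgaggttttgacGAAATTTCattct
SSA4, chrV:364331-364419, plus strand: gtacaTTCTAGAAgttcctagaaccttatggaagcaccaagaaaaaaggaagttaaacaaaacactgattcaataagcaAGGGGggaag
HSC82, chrXIII:632133-632182, plus strand: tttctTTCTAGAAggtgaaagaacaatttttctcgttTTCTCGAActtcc
HSP82, chrXVI:98765-98865, minus strand: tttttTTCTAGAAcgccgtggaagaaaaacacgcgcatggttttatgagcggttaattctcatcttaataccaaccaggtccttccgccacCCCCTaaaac
HSP104, chrXII:88316-88460, plus strand: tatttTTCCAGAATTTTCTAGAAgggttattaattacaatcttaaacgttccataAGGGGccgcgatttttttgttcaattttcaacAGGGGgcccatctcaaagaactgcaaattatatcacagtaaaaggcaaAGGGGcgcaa
HSP42, chrIV:806373-806448, plus strand: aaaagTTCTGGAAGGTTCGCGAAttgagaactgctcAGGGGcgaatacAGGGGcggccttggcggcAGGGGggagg
HSP78, chrIV:974398-974495, minus strand: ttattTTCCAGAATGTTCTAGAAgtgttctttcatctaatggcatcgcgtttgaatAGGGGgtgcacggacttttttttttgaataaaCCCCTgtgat
SSE2, chrII:576213-576238, minus strand: gacgtTTCTAGAAcgtCCCCTtacca
In HSP104, HSP42 and HSP78 an uninterrupted run of alternating heat shock units was followed by stress response elements nearer to the start codon. SSA1 also had such a run with stress response elements nearer to the start codon, and had further heat shock elements closer to the start codon than the run. In the HSP90 pair, HSC82 had 2-unit heat shock elements and no stress response element, and HSP82 had both. The plot of motif positions shows the whole window of each gene.

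**Figure D1:**
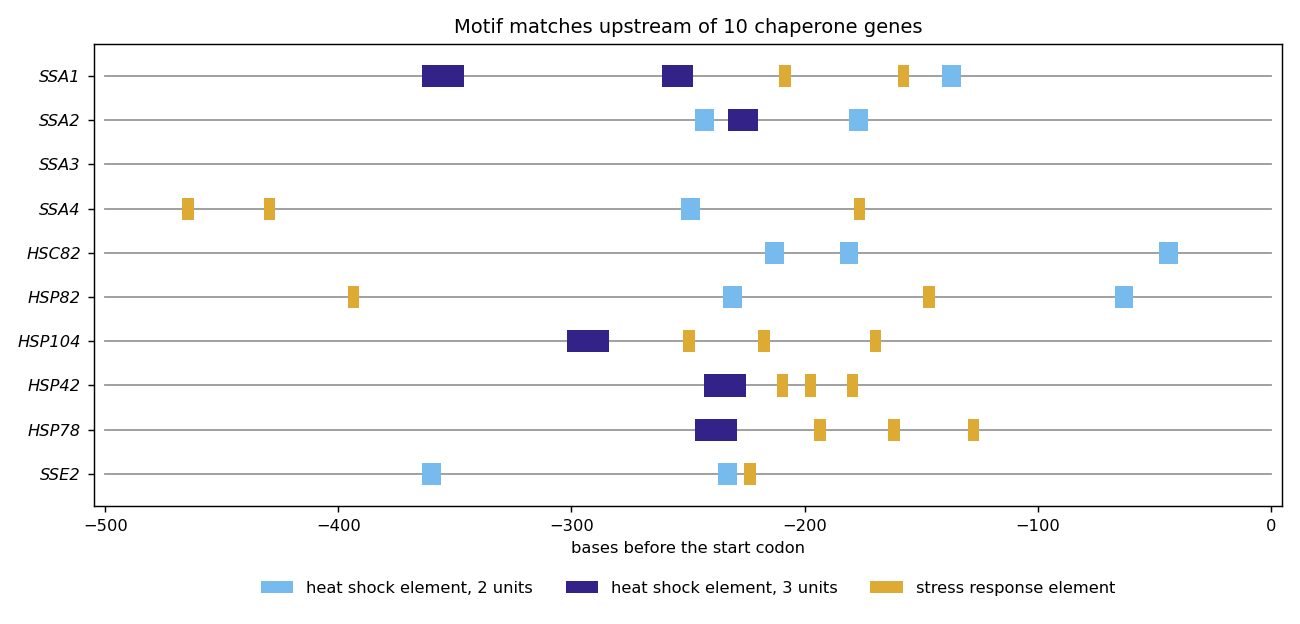
Positions of heat shock elements of 2 units (light blue) and 3 units (dark blue) and of stress response elements (yellow) upstream of each gene, with the distance in bases before the start codon on the horizontal axis and a row per gene. Units of 3 are drawn over the 2-unit matches they contain; 3-unit elements appear before 5 of the 10 genes, and the SSA3 row is empty.

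Each of the 10 genes varied between the strains, and DGY1741 had the least RNA of all 10. In the edgeR quasi-likelihood test of any difference among strains, adjusted by Benjamini-Hochberg over 5527 genes, all 10 members passed the threshold of 0.05, with adjusted p between 1.2e-06 and 0.00048, and 47.3% of all tested genes passed. Both DGY1741 libraries lay below the other 6 libraries for all 10 members, which held for 16.4% of tested genes. For all 10 members the DGY1743 libraries lay above both DGY1741 libraries and below all DGY1735 and DGY1726 libraries, an order found in 5.5% of tested genes. Summed over the 10 genes, the members took 1.10% and 0.857% of protein-coding counts in DGY1743 and 0.513% and 0.558% in DGY1741. They took 1.74% and 2.05% in DGY1735, and 1.74% and 2.06% in DGY1726. The protein-coding counts included mitochondrially encoded genes, which took 13.2% and 19.2% in the DGY1743 libraries and at most 0.0957% in the others. The ratio of the highest to the lowest strain mean ran from 2.22 for HSC82 and 2.69 for SSA4 to 6.48 for SSA3. Nothing in the labels says that replicate cultures shared a batch. The edgeR p-values rest on the spread between 2 cultures per strain, drawn for each gene toward the trend over all tested genes. This trend had a weight of 7.88 prior degrees of freedom in the fit of all 8 libraries.

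**Figure D2:**
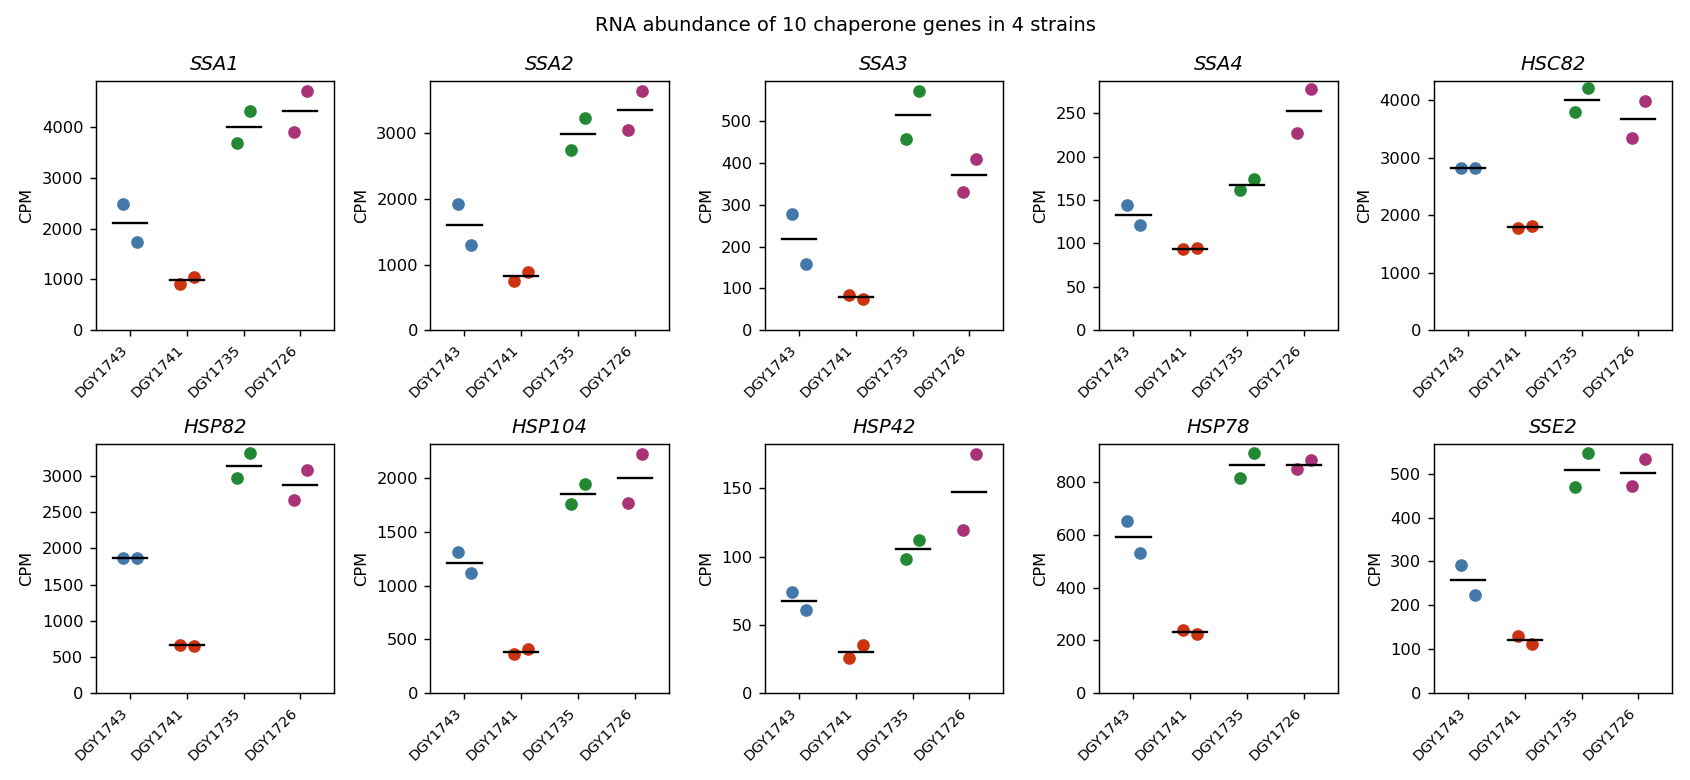
RNA abundance of the 10 genes in CPM, a panel per gene, with 1 point per library, a bar at the mean of the 2 libraries of a strain and an axis that starts at 0. DGY1741 is lowest in every panel and DGY1743 second lowest; SSA3 is highest in DGY1735 and SSA4 in DGY1726.

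SSA1 and SSA2 are the HSP70 genes expressed at all times, SSA1 being also raised by heat in yeast. They had the most RNA of the 4 SSA genes in every library. Levels are given in CPM, counts per 1000000 counts of the library after scaling by the TMM factors of edgeR. SSA1 measured 2484 and 1746 CPM in DGY1743, 907 and 1055 CPM in DGY1741, 3682 and 4310 CPM in DGY1735, and 3908 and 4716 CPM in DGY1726. SSA2 measured 1921 and 1291 CPM in DGY1743, 757 and 883 CPM in DGY1741, 2744 and 3235 CPM in DGY1735, and 3051 and 3651 CPM in DGY1726. Both genes ran in the same order across the strains, with the libraries of DGY1735 and DGY1726 overlapping and the other strains apart. SSA1 was lower in DGY1741 than in the other 3 strains, by a log2 ratio of -1.76 ± 0.18 (SE; adjusted p = 1.1e-05, edgeR), and SSA2 by -1.62 ± 0.18 (adjusted p = 2.2e-05, edgeR).

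The values of SSA1 and SSA2 may not be independent of each other. Their coding sequences were 96.4% identical, and the longest run without a difference covered 383 bases, from base 403 to base 785 of SSA1. Of all stretches of 50 bases, the read length before any trimming, 57.9% of those in SSA1 also occur in SSA2 and 58.2% of those in SSA2 also occur elsewhere, whereas SSA3, SSA4, HSP104, HSP42, HSP78 and SSE2 shared none with any other gene. How the counting treated reads with several best alignments is not given in the sources used here. The first 60 bases of that run are shown with the aligned bases of the inducible genes, where capitals mark differences from SSA1.
SSA1, chrI:140970-141029, minus strand: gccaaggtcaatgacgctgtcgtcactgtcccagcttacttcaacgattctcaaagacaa
SSA2, chrXII:97024-97083, minus strand: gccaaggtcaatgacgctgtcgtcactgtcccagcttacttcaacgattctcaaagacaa
SSA3, chrII:85987-86046, minus strand: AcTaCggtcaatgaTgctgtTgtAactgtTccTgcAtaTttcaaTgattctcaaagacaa
SSA4, chrV:364991-365050, plus strand: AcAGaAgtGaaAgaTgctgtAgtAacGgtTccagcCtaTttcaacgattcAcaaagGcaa
SSA2 had 0 differences from SSA1 over these bases, SSA3 had 11 and SSA4 had 15. With SSA1 and SSA2 summed as 1 gene, DGY1741 was lower than the other 3 strains by a log2 ratio of -1.70 ± 0.19 (SE; adjusted p = 2.9e-05, edgeR). YAL004W, on the opposite strand within SSA1, had between 1 and 22 counts per library, at most 0.152% of the SSA1 count.

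SSA3 and SSA4 are the HSP70 genes induced by heat and other stresses, and they differed from each other in which strain had the most RNA. SSA3 measured 279 and 158 CPM in DGY1743, 84.0 and 74.8 CPM in DGY1741, 458 and 571 CPM in DGY1735, and 330 and 410 CPM in DGY1726. SSA4 measured 144 and 122 CPM in DGY1743, 93.6 and 94.3 CPM in DGY1741, 162 and 174 CPM in DGY1735, and 227 and 278 CPM in DGY1726. DGY1735 was thus highest for SSA3 and DGY1726 for SSA4, with no overlap of libraries in either case. SSA3 had the widest spread of the 10 genes, with a log2 ratio of -2.13 ± 0.20 in DGY1741 and 1.47 ± 0.16 in DGY1735 against the other 3 strains (SE; adjusted p = 6.4e-06 and 5.4e-05, edgeR). SSA4 was lower in DGY1741 by -0.92 ± 0.11 (adjusted p = 3.5e-05, edgeR) and higher in DGY1726 by 0.98 ± 0.10 (adjusted p = 3.4e-05, edgeR). In DGY1735, SSA4 had a log2 ratio of 0.19 ± 0.10, which did not pass the threshold (adjusted p = 0.20, edgeR).

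HSC82 is the HSP90 gene expressed at high level in all conditions, and HSP82 is its heat-induced copy. HSC82 measured 2829 and 2830 CPM in DGY1743, 1780 and 1819 CPM in DGY1741, 3793 and 4216 CPM in DGY1735, and 3351 and 3988 CPM in DGY1726. HSP82 measured 1873 and 1864 CPM in DGY1743, 662 and 654 CPM in DGY1741, 2976 and 3317 CPM in DGY1735, and 2671 and 3083 CPM in DGY1726. The order of the strains was the same for both genes, and HSC82 spanned a narrower range. Against the other 3 strains, HSP82 had a log2 ratio of -1.96 ± 0.14 in DGY1741 (SE; adjusted p = 4.7e-07, edgeR) and HSC82 one of -0.94 ± 0.14 (adjusted p = 0.00019, edgeR). The coding sequences were 91.7% identical, with a longest common run of 113 bases, and 6.43% of the 50-base stretches of HSC82 and 6.39% of those of HSP82 were shared.

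SSE2 is the stress-induced HSP110 gene, and SSE1, which is not among the 10 members, is the form expressed at all times. SSE2 measured 292 and 223 CPM in DGY1743, 129 and 113 CPM in DGY1741, 469 and 547 CPM in DGY1735, and 472 and 533 CPM in DGY1726. SSE1 measured 687 and 594 CPM in DGY1743, 396 and 388 CPM in DGY1741, 846 and 849 CPM in DGY1735, and 875 and 911 CPM in DGY1726. Both were lowest in DGY1741, SSE2 by a log2 ratio of -1.74 ± 0.13 against the other 3 strains (SE; adjusted p = 1.0e-06, edgeR) and SSE1 by -1.003 ± 0.10 (adjusted p = 1.1e-05, edgeR).

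HSP104 and HSP78 encode the disaggregases of the cytosol and of mitochondria, and HSP42 encodes a small heat shock protein that gathers misfolded proteins into deposits. HSP104 measured 1317 and 1112 CPM in DGY1743, 365 and 405 CPM in DGY1741, 1757 and 1944 CPM in DGY1735, and 1766 and 2228 CPM in DGY1726. HSP78 measured 654 and 531 CPM in DGY1743, 239 and 224 CPM in DGY1741, 818 and 913 CPM in DGY1735, and 850 and 886 CPM in DGY1726. HSP42, the member with the fewest counts, measured 74.3 and 61.2 CPM in DGY1743, 25.3 and 35.1 CPM in DGY1741, 98.4 and 112 CPM in DGY1735, and 119 and 175 CPM in DGY1726. For the disaggregases the libraries of DGY1735 and DGY1726 overlapped, and for HSP42 those of DGY1726 lay above those of DGY1735. In DGY1741 against the other 3 strains, the log2 ratio was -2.10 ± 0.15 for HSP104 (SE; adjusted p = 4.9e-07, edgeR), -1.72 ± 0.12 for HSP78 (adjusted p = 4.8e-07, edgeR) and -1.75 ± 0.18 for HSP42 (adjusted p = 1.0e-05, edgeR).

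Set against the other 3 strains, DGY1741 had lower RNA of all 10 members, and DGY1735 and DGY1726 had higher RNA of most. In DGY1743, 0 of 10 members passed the edgeR test (background 21.4% of tested genes), 2 had an unadjusted p below 0.05 and DESeq2 called 0; the log2 ratios were between -0.33 and 0.11. Without DGY1743 replicate 1, SSA2, SSA3 and SSE2 were lower in DGY1743, at -0.64, -0.64 and -0.49. In DGY1741, 10 of 10 were lower (background 18.3% of tested genes lower), with a median log2 ratio of -1.75 beside -0.01 over all tested genes. In DGY1735, 9 of 10 were higher (background 9.7% higher), the exception being SSA4, with a median of 0.89 beside 0.00. In DGY1726, 10 of 10 were higher (background 12.1% higher), with a median of 0.99 beside 0.00. HSC82 had the smallest of these, 0.43 ± 0.13 (SE; adjusted p = 0.031, edgeR), and it did not pass without either replicate of DGY1741 (0.42 and 0.43) or of DGY1726 (0.55 and 0.29). SSA3 did not pass in DGY1726 without DGY1726 replicate 2 (0.66). These 4 contrasts share all libraries, and the low values of DGY1741 enter the mean against which each other strain is set. With mitochondrially encoded genes left out, all 4 counts of members stayed the same.

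**Figure D3:**
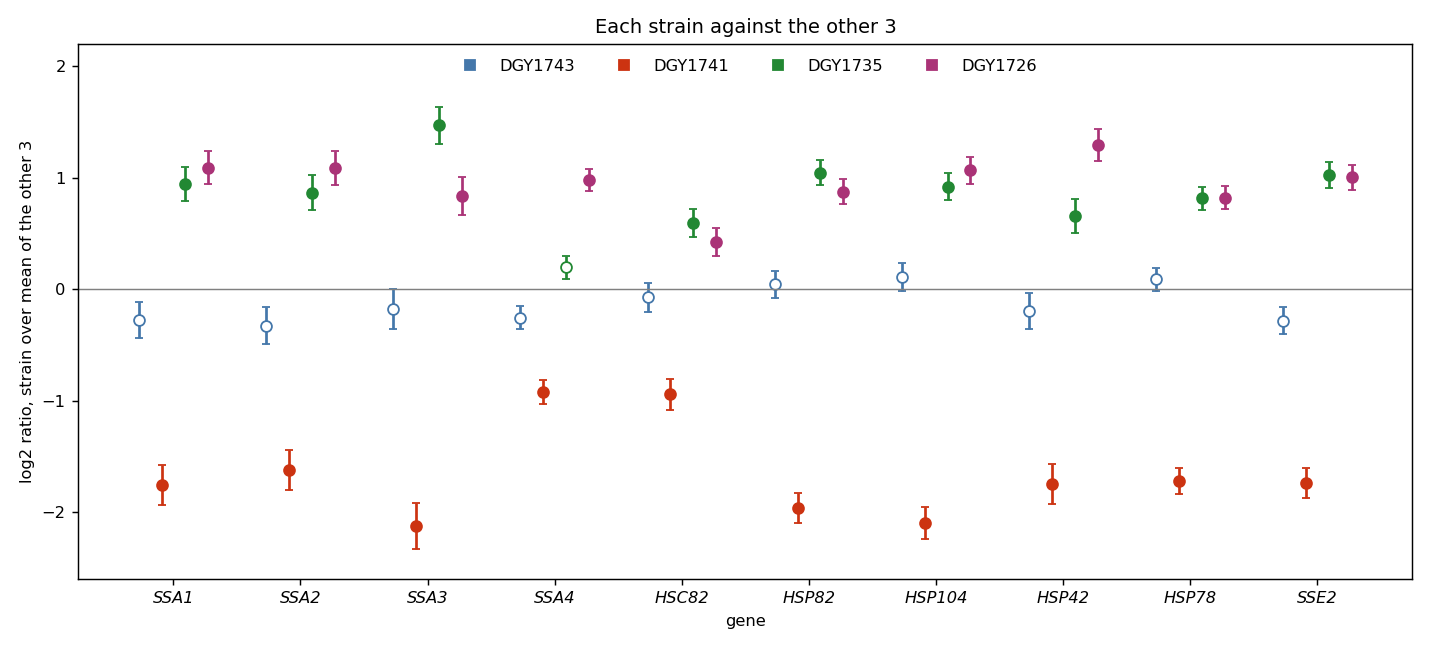
Log2 ratio of each strain over the mean of the other 3 for the 10 genes, with standard errors derived from the edgeR F statistic as bars. Filled points passed the adjusted p threshold of 0.05 and open points did not. All DGY1741 points lie between -2.13 and -0.92, all DGY1743 points are open, and the only open point of DGY1735 is SSA4.

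The tests between pairs of strains placed DGY1743 between DGY1741 and the other pair. DGY1743 had more RNA of all 10 members than DGY1741 (24.6% of tested genes called, 14.3% higher), with log2 ratios between 0.50 ± 0.14 for SSA4 and 1.66 ± 0.16 for HSP104 (SE). In the fit of this pair the spread of each gene was set wholly to the trend over all tested genes. The spread between a gene's own replicates thus did not enter these SE and calls. In a fit of all 8 libraries the same 10 calls had adjusted p between 1.0e-05 and 0.014 (edgeR). Without DGY1741 replicate 1, SSA4 and HSC82 did not pass, at 0.50 and 0.65, and the same held without DGY1741 replicate 2, at 0.50 and 0.67. Compared with DGY1726, DGY1743 had less RNA of 9 members (27.2% called, 13.8% lower). The log2 ratio of HSC82, the exception, was -0.38 ± 0.20 (SE; adjusted p = 0.17, edgeR), and that of HSP42 was -1.12 ± 0.17 (adjusted p = 2.9e-05, edgeR). Without DGY1726 replicate 2, HSP82, HSP104 and HSP78 did not pass either, at -0.52, -0.55 and -0.53, nor did HSP82 without DGY1726 replicate 1, at -0.73, or SSA3 without DGY1743 replicate 2, at -0.41. Compared with DGY1735, DGY1743 had less RNA of 6 members (16.1% called, 6.4% lower), namely SSA1, SSA2, SSA3, HSP82, HSP42 and SSE2. HSP78, HSP104, SSA4 and HSC82 had negative log2 ratios of -0.55, -0.61, -0.35 and -0.51 and did not pass. With DESeq2 this count was 9, where 1081 of all tested genes were called, beside 891 with edgeR. Without DGY1743 replicate 1, SSA1, SSA2 and HSP82 did not pass, at -1.20, -1.22 and -0.76. The 6 members named first did not pass without DGY1743 replicate 2, at -0.68, -0.64, -0.88, -0.75, -0.50 and -0.80. Fewer of all tested genes were also called in either fit.

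DGY1741 had less RNA of all 10 members than DGY1735 (38.5% called, 18.2% lower), with log2 ratios between -2.68 for SSA3 and -0.82 for SSA4, and less of all 10 than DGY1726 (43.2% called, 22.0% lower), with log2 ratios between -2.37 for HSP104 and -1.03 for HSC82. Between DGY1735 and DGY1726, 0 of 10 members passed the edgeR test (1.76% of tested genes called). In this pair 3 members had an unadjusted p below 0.05: SSA4 at -0.58 ± 0.12 (SE; adjusted p = 0.076, edgeR), SSA3 at 0.48 ± 0.15 (adjusted p = 0.22) and HSP42 at -0.47 ± 0.18 (adjusted p = 0.28). DESeq2 called SSA4 alone (adjusted p = 0.0073).

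Ratios within a library compare the inducible with the constitutive form directly, since library size cancels. Each ratio was taken per kilobase of coding length and tested by an exact permutation test of the F statistic over all groupings of the 8 libraries into 4 strains, with Benjamini-Hochberg adjustment over 8 ratios. The smallest p this design allows is 0.00952. Every p is for any difference among the 4 strains. The strains with the highest and lowest mean were picked after their values were seen, and their difference was not tested by itself. Of the 8 ratios, 5 passed the threshold, each with an adjusted p of 0.0457. The ratios among SSA2, SSA3 and SSA4 are not independent results, since SSA4/SSA3 follows from SSA4/SSA2 and SSA3/SSA2. With 1 library left out in turn, the difference between the strains that were highest and lowest over all 8 libraries kept its sign, and the call was lost in 8 of 8 cases for SSA3/SSA2, in 6 of 8 for SSA4/SSA2, SSA4/SSA3 and SSE2/SSE1, and in 5 of 8 for HSP82/HSC82, with adjusted p of up to 0.14 (exact permutation).

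The share of inducible HSP90 RNA was lowest in DGY1741. HSP82 RNA per kilobase was 0.657 of that of HSC82 in DGY1743, 0.364 in DGY1741, 0.781 in DGY1735 and 0.781 in DGY1726. On the log2 scale the HSP82/HSC82 ratio was -0.61 ± 0.01 in DGY1743, -1.46 ± 0.03 in DGY1741, -0.36 ± 0.00 in DGY1735 and -0.36 ± 0.03 in DGY1726 (SD, n = 2). DGY1741 stood apart from all others, DGY1743 lay between, and the libraries of DGY1735 and DGY1726 overlapped. The highest and lowest strain means, DGY1735 and DGY1741, differed by 1.10 (exact permutation p = 0.0286). SSE2 relative to SSE1 followed the same order, at 0.399 in DGY1743, 0.307 in DGY1741, 0.598 in DGY1735 and 0.562 in DGY1726, a log2 difference of 0.96 between DGY1735 and DGY1741 (exact permutation p = 0.019).

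Between DGY1735 and DGY1741, the inducible HSP70 genes went in opposite directions relative to SSA2. For SSA3/SSA2 the DGY1741 libraries, at -3.19 and -3.58 on the log2 scale, overlapped those of DGY1726, at -3.23 and -3.18. SSA3 RNA per kilobase was 0.131 of that of SSA2 in DGY1743, 0.0955 in DGY1741, 0.169 in DGY1735 and 0.109 in DGY1726. The DGY1735 mean was thus 0.82 above the DGY1741 mean on the log2 scale (4-strain exact permutation p = 0.019). SSA4 was 0.0836 of SSA2 in DGY1743, 0.114 in DGY1741, 0.0560 in DGY1735 and 0.0750 in DGY1726. Here the DGY1741 mean was 1.03 above the DGY1735 mean on the log2 scale (4-strain exact permutation p = 0.019). SSA4 relative to SSA3 had the widest range of the 8 ratios. It was 0.636 in DGY1743, 1.20 in DGY1741, 0.331 in DGY1735 and 0.691 in DGY1726. The log2 difference between DGY1741 and DGY1735 was 1.85 (4-strain exact permutation p = 0.0286). SSA4 exceeded SSA3 per kilobase only in the 2 DGY1741 libraries of the 8, where both genes were at their lowest. With SSA1 and SSA2 summed as 1 constitutive feature, the differences were 0.73 for SSA3 and 1.12 for SSA4. When HSC82 and HSP82 were summed as well, 6 of the ratios could still be formed. Of these 6, 0 passed after adjustment, although 5 had an unadjusted p below 0.05. SSA3 and SSA4 over the summed feature, SSA4/SSA3 and SSE2/SSE1 each had an adjusted p of 0.0571 (exact permutation). SSA4/SSA3 and SSE2/SSE1 hold no summed gene, and only the adjustment changed for them.

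The remaining ratios did not pass. SSA1/SSA2 spanned 0.16 on the log2 scale (adjusted exact permutation p = 0.0653), and reads that match both genes may also enter it. HSP78/HSP104 spanned 0.46 (adjusted exact permutation p = 0.0857), with mitochondrial over cytosolic disaggregase highest in DGY1741 at 0.674. HSP104/HSP42 spanned 0.48 (adjusted exact permutation p = 0.0635).

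**Figure D4:**
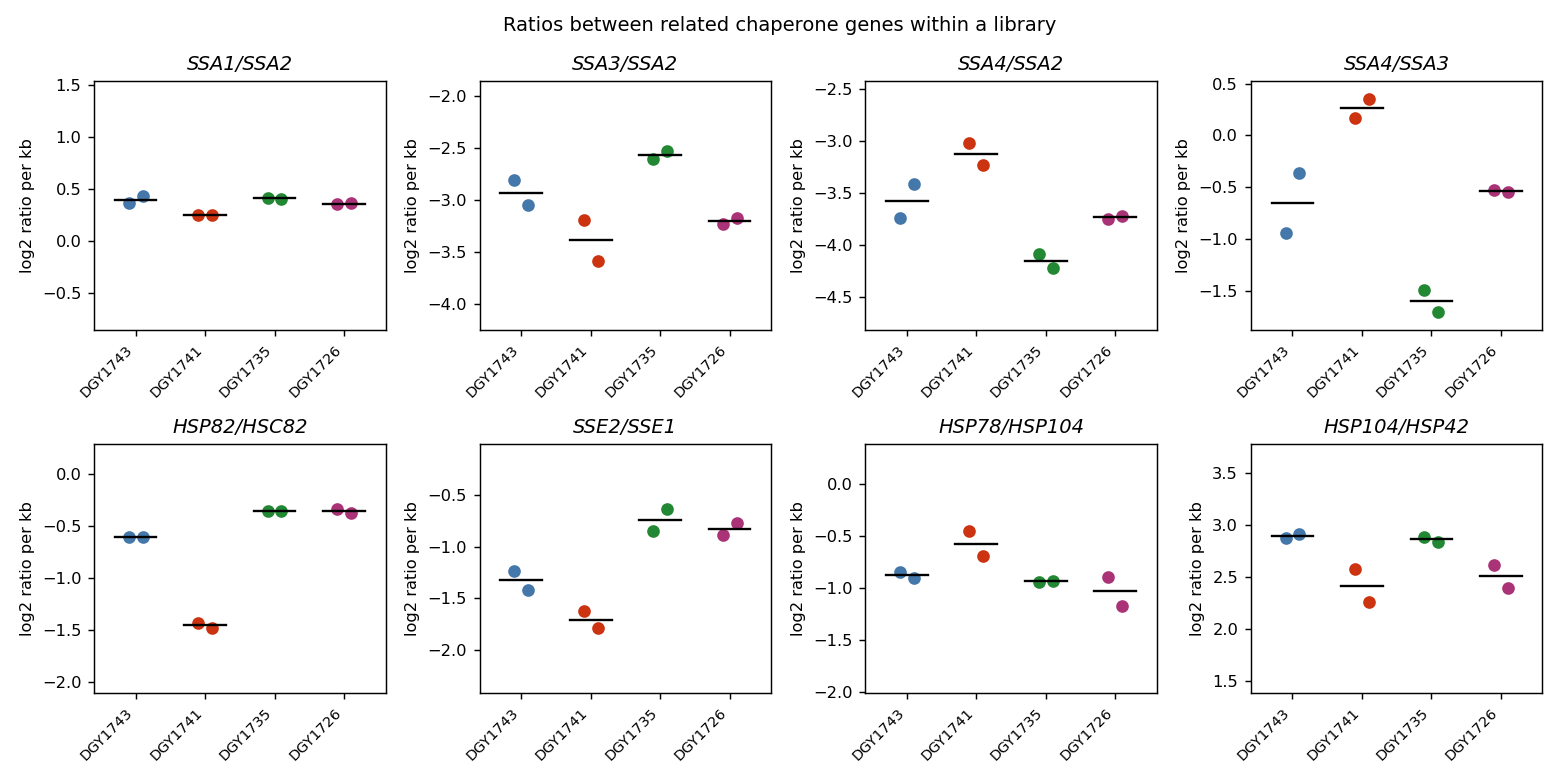
Log2 ratio of RNA per kilobase between related genes, a panel per ratio, with 1 point per library and a bar at the strain mean and vertical axes of equal span. HSP82/HSC82 and SSE2/SSE1 are lowest in DGY1741, whereas SSA4/SSA3 is highest there and lowest in DGY1735.

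Partner genes of the members were described from 8 lists of known chaperone and stress genes that hold none of the 10 members. Their RNA differed in DGY1741 against the other 3 strains to very different degrees, and the counts are set beside the 18.3% of tested genes that were lower there and the 18.5% that were higher. Of 17 HSP70 partners, 6 were lower and 2 higher in DGY1741 (median log2 ratio -0.17), the 2 being DJP1 at 0.31 and SNL1 at 0.42. Those with the smallest p among the strains were SSE1, SIS1 at -1.03 and YDJ1 at -0.82, SIS1 and YDJ1 encoding the main J-domain proteins of the cytosol. Of 12 HSP90 co-chaperones, 6 were lower and 0 higher (median -0.35). Those with the smallest p among the strains were STI1, which links HSP70 to HSP90, at -1.63, CPR6, a peptidyl-prolyl isomerase, at -0.81 and CNS1 at -0.61. AHA1, an activator of the HSP90 ATPase, was at -0.91.

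The mitochondrial and endoplasmic reticulum lists held calls in both directions, as did all tested genes, of which 18.3% were lower and 18.5% higher in DGY1741. Of 11 mitochondrial chaperones, 4 were lower and 1 higher in DGY1741 (median -0.25), with the mitochondrial HSP70 gene SSC1 at -0.76, the chaperonin gene HSP60 at -0.79 and its partner HSP10 at -0.87, and MDJ2, a J-domain protein gene and the 1 called higher, at 0.49. Of 11 endoplasmic reticulum folding genes, 2 were lower and 3 higher (median 0.13), near the shares over all tested genes. The lower genes were ERO1, the oxidase for disulfide bonds, at -0.87 and KAR2, the HSP70 of that compartment, at -0.38. The higher genes were MPD1 at 0.40, SEC63 at 0.37 and JEM1 at 0.34. SCJ1, a J-domain protein gene that passed the 4-strain test (adjusted p = 0.016, edgeR), had 0.13 ± 0.10 in DGY1741 (SE; adjusted p = 0.33, edgeR). Of the 8 subunits of the cytosolic chaperonin, which folds actin and tubulin, 0 were called in any strain against the other 3 or in the 4-strain test (edgeR). Pairs of strains are not covered for this list. Of all tested genes, 47.3% passed the 4-strain test and 21.4% were called in DGY1743 against the other 3 strains. At an unadjusted p under 0.05, edgeR gave 2 of the 8 in DGY1743, CCT7 and TCP1, and 0 in DGY1741, DGY1735, DGY1726 and the 4-strain test. DESeq2 called 1 of the 8, TCP1, in DGY1743, at -0.29 ± 0.11 (SE; adjusted p = 0.041), against -0.28 ± 0.10 in edgeR (adjusted p = 0.064), and 0 in the other contrasts and the 4-strain test. In DGY1741, TCP1 had a log2 ratio of 0.19 ± 0.10 (SE; adjusted p = 0.15, edgeR) and CCT2 one of 0.15 ± 0.09 (adjusted p = 0.21).

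Most other heat-induced and general stress genes were also lower in DGY1741. Of 7 other heat-induced genes, 6 were lower and 0 higher in DGY1741 (median -1.40). The small heat shock gene HSP26 measured 367 and 181 CPM in DGY1743, 35.0 and 42.1 CPM in DGY1741, 497 and 537 CPM in DGY1735, and 732 and 954 CPM in DGY1726, a log2 ratio of -3.68 ± 0.26 in DGY1741 (SE; adjusted p = 6.2e-07, edgeR). HSP12, a membrane-associated stress protein gene, had -2.05 and HSP31 had -1.40. Of 12 general stress genes, 9 were lower and 0 higher in DGY1741 (median -1.04), with CTT1, the cytosolic catalase, at -3.33, SOL4, of the pentose phosphate pathway, at -2.98 and DDR2, a multistress response gene, at -2.74. Of the 7 heat-induced genes, 6 were higher and 1 lower in DGY1735, where 9.7% of tested genes were higher and 11.7% lower, and 5 were higher in DGY1726, where 12.1% were higher. The 1 lower gene in DGY1735 was HSP30, at -1.01. Of the 12 general stress genes, 10 were higher in DGY1735 and 9 in DGY1726, beside the same 9.7% and 12.1% of tested genes.

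**Figure D5:**
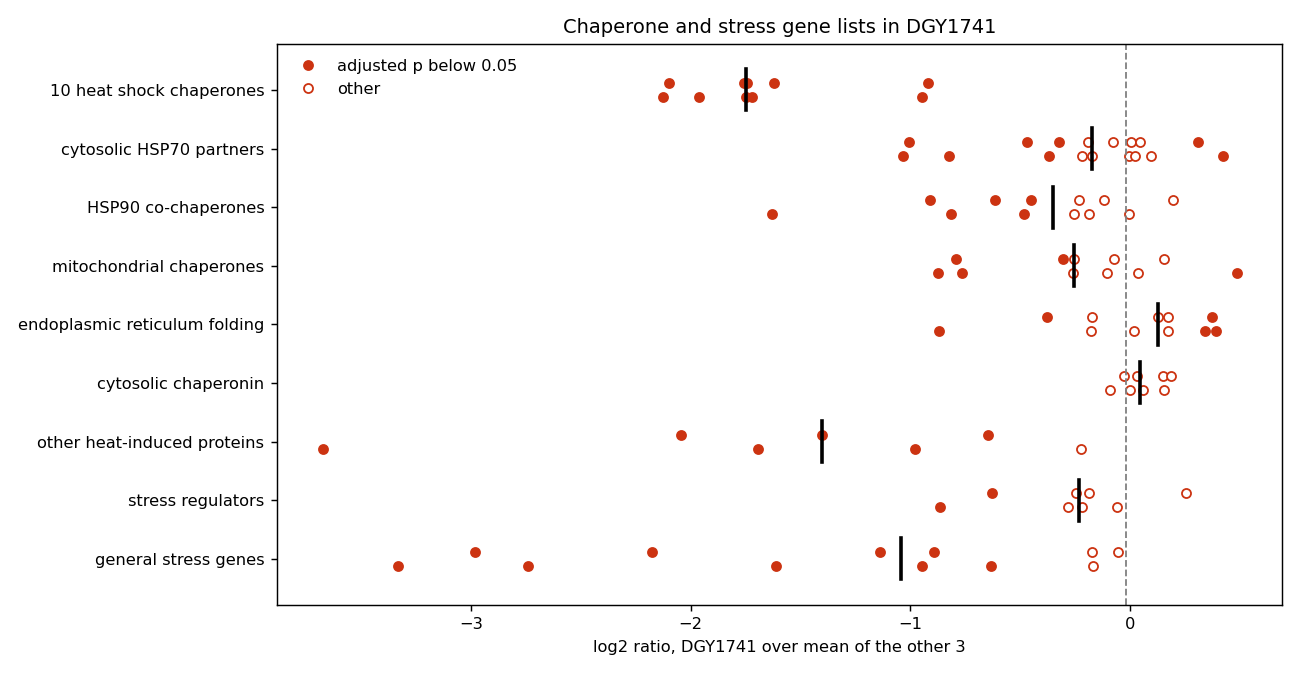
Log2 ratio of DGY1741 over the mean of the other 3 strains for the 10 chaperone genes and for 8 lists of other genes, with 1 point per gene (filled where the adjusted p was below 0.05), a black bar at the median of each row and a dashed line at the median of all tested genes. The medians of the 10 chaperones (-1.75), the other heat-induced genes (-1.40) and the general stress genes (-1.04) lie far to the left, and that of the cytosolic chaperonin (0.05) lies near 0.

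The RNA of the transcription factors themselves was measured as well. HSF1 measured 91.8 and 76.6 CPM in DGY1743, 75.8 and 88.0 CPM in DGY1741, 87.8 and 89.3 CPM in DGY1735, and 102 and 115 CPM in DGY1726, and did not pass the 4-strain test (adjusted p = 0.063, edgeR). Its libraries of DGY1743, DGY1741 and DGY1735 overlapped, with DGY1726 above. HSF1 was higher in DGY1726 against the other 3 strains, at 0.35 ± 0.10 (SE; adjusted p = 0.029, edgeR), and had a log2 ratio of -0.18 ± 0.11 in DGY1741 (SE; adjusted p = 0.20, edgeR). MSN4 was lower in DGY1741, at -0.87 ± 0.19 (SE; adjusted p = 0.0031, edgeR), and MSN2 was not, at 0.26 ± 0.13 (adjusted p = 0.13). MSN2 was lower in DGY1743, at -0.52 ± 0.14 (adjusted p = 0.018). YAK1, a kinase acting on Hsf1 and Msn2, was lower in DGY1741, at -0.62 ± 0.11 (adjusted p = 0.00062, edgeR). Of the 8 regulators listed, 2 were lower and 0 higher in DGY1741, where 18.3% of tested genes were lower. In DGY1726, 4 of the 8 were higher, namely HSF1, RIM15 at 0.37, SKN7 at 0.34 and YAK1 at 0.40, beside 12.1% of tested genes higher there.

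Among the 5517 other tested genes, those with the pattern most like a member were named by the smallest root mean square difference of log2 CPM, centred per gene over the 8 libraries. HSP78 was closest to YJR096W (0.0636) and HSP82 to GAD1 (0.0660), the glutamate decarboxylase gene. SSA2 was closest to STI1 (0.0697), as was SSA1 (0.0966), and HSC82 to YCL012C (0.0695) and SIS1 (0.0791). SSA3 was closest to OM45 (0.136), a mitochondrial outer membrane protein gene that was also closest to SSE2 (0.167). HSP42 was closest to BTN2 (0.156), HSP104 to GAD1 (0.155) and SSA4 to CPR6 (0.132) and SSC1 (0.135). These distances are descriptions over 8 libraries of 4 strains and carry no test.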

How the data were processed

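The authors sequenced 50-base single reads, removed snRNA, rRNA and tRNA reads, aligned with STAR to R64 and counted strand-specific overlaps with features using bedtools; the deposited values are raw counts per gene, with no normalization. The labels also name cutadapt, a trimming tool, so that aligned reads may have been shorter than 50 bases. The labels describe polyA RNA, whereas the methods state no such selection. The treatment of reads with several alignments is not given in the sources used here.

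Groups and replicate numbers came from sample titles. Genes averaging 100 counts or more per library were tested with edgeR 4.0.16 (quasi-likelihood, TMM, R 4.3.3), all 8 libraries for the 4-strain test and for each strain against the other 3, and the 4 libraries of each pair for pairs, with Benjamini-Hochberg adjustment over all tested genes. Ratios used a pseudocount of 0.5 count. Named partner genes were the 3 with the smallest 4-strain p per list, plus HSF1, MSN2, MSN4 and SSE1, and the closest genes per member. AHA1 and genes named because few of a list were called in a direction were chosen after their values were seen. The members and lists were chosen with earlier results of these data known. Sequences came from the RefSeq R64 genome, whose 17 chromosome lengths and member coordinates equal those of the deposited tables; upstream windows of 500 bases were cut from it. Scripts were tested on simulated data. Alternatives were DESeq2 1.42.0, other size factors and filters, mitochondrial genes left out, a replicate block and leaving out each library.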

Additional observations from a re-analysis of the deposited data

Results flagged for a closer look

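The 5 ratios between related genes that differed among the strains by the exact permutation test are listed here as differences between strain means on the log2 scale. SSA3/SSA2 was 0.82 higher in DGY1735 than in DGY1741, HSP82/HSC82 was 1.10 higher and SSE2/SSE1 was 0.96 higher. SSA4/SSA2 was 1.03 higher in DGY1741 than in DGY1735, and SSA4/SSA3 was 1.85 higher. SSA4/SSA3 follows from SSA4/SSA2 and SSA3/SSA2 and is not a separate result. With 2 libraries per strain, no single library could be tested as far from its group.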

How the results depend on the processing

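The 10 members passed the 4-strain test, and were lower in DGY1741 than in the other 3 strains and in each pair with DGY1735 and DGY1726, under every alternative run. Between DGY1735 and DGY1726 the count of members called, 0, was 1 with DESeq2, 1 in the fit of all 8 libraries (SSA4 in both) and 2 with a replicate block (SSA3 and SSA4). Of all tested genes, 97 were called in this pair, against 191, 136 and 256 in those settings. Replicate numbers were not paired by the labels, and replicate deviations of the same number correlated between -0.25 and 0.40 across strains. Under the replicate block, members called in DGY1743 over DGY1735 were 4. Of all tested genes, 903 were called there, against 891 without the block. With each library left out in turn, counts of members called were 0 to 3 for DGY1743 against the other 3, 0 to 6 for DGY1743 over DGY1735 and 0 to 2 for DGY1735 over DGY1726. In DGY1743 against the other 3, log2 ratios, none called with all libraries, then changed sign for SSA3 (-0.64 to 0.17), HSP104 (-0.016 to 0.23) and HSP78 (-0.071 to 0.23); of these end values only the -0.64 of SSA3, without DGY1743 replicate 1, was called.

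Differences in log2 ratios between the strains that were highest and lowest over all 8 libraries, with each library left out, were 0.16 to 0.17 for SSA1/SSA2, 0.63 to 1.02 for SSA3/SSA2, 0.93 to 1.14 for SSA4/SSA2, 1.75 to 1.96 for SSA4/SSA3, 1.08 to 1.13 for HSP82/HSC82, 0.85 to 1.07 for SSE2/SSE1, 0.32 to 0.60 for HSP78/HSP104 and 0.32 to 0.64 for HSP104/HSP42. With the near-identical copies summed, the differences were 0.73 for SSA3 and 1.12 for SSA4 over the summed SSA1 and SSA2. SSA4/SSA3 and SSE2/SSE1 hold no summed gene, so their differences, 1.85 and 0.96, and their unadjusted p stayed the same. After adjustment over 6 ratios in place of 8, these 4 no longer passed. The causes were not tested. Each strain had 2 cultures, and all members had at least 307 counts in every library.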
